A study of Arabidopsis thaliana with 4 samples.

Results

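The transcript pool of the dark-grown wild-type Arabidopsis hypocotyl was described from the single library labelled Col-hypocotyl-MOCK, which is 1 of the 4 libraries of the series. It was made from hypocotyls of Col-0 seedlings kept in darkness on 1/2 MS medium for 4 days with no added auxin. In it, 7406802 reads were assigned to 23681 transcript models at 21186 loci, of 27603 models and 23695 loci with a read in any of the 4 libraries. The other 3 libraries were Col-0 grown with 500 nM of the synthetic auxin NAA, the arf7 T-DNA mutant without NAA, and arf7 with 500 nM NAA, all of the same age, organ and dark culture. The labels name 1 library per group and give no number of seedlings per library. No difference between libraries can therefore be set against a spread between replicates, and values of the other 3 are given only beside genes on which a statement turns. Each interval below is an exact 95% interval (Poisson for counts, Clopper-Pearson for shares) that covers counting error only. The RNA came from whole hypocotyls, in which fewer cells of a type and less RNA per cell cannot be told apart.

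A hypocotyl grown in darkness is the stem of an etiolated seedling, and it lengthens almost wholly by cell expansion under a thin cuticle. Expansion draws water into the vacuole through aquaporins while expansins and xyloglucan-modifying enzymes loosen the wall and new cellulose and wall glycoproteins are laid down. Brassicaceae seedlings also fill their epidermal cells with ER bodies, compartments derived from the endoplasmic reticulum that store the beta-glucosidase PYK10. When tissue is damaged PYK10 meets indole glucosinolates and releases products toxic to microbes and herbivores. In darkness the plastids are etioplasts, and COP1 and the PIF factors are known to keep many light-responsive genes low.

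PYK10 (BGLU23, AT3G09260) was the most abundant locus by both measures. It lies on the reverse strand of chromosome 3 at 2840477 to 2843781 of TAIR10, the build named in the submitters' processing notes. It held 293803 reads, 3.97% of all reads (3.95 to 3.98%), and its level was 21964 RPKM (21885 to 22043), where RPKM is assigned reads scaled to the length of the model and to the library total. The 80 bases before the gene's start are printed for PYK10 and for the other 3 of the 20 leading loci whose 5′ end in the deposited list equals that of RefSeq. The other 16 leading loci start at different bases in the lists, by 3 to 1101 bases, and are not shown. The sequences are RefSeq's TAIR10.1 genome, written 5′ to 3′ on the gene's strand in lower case, with the TATA-box core TATAAA in capitals.
PYK10, chr3:2843782-2843861, reverse strand: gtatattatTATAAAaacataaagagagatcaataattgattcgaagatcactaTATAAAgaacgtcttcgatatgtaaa
LHCB1.5, chr2:14523569-14523648, reverse strand: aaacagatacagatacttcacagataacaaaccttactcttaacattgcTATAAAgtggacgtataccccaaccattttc
TCTP, chr3:5670843-5670922, reverse strand: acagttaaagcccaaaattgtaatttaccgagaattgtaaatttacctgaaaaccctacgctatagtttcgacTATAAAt
PSAG, chr1:20803450-20803529, reverse strand: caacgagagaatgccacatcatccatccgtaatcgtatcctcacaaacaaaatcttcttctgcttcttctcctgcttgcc
The PYK10 window held 2 copies of TATAAA, the nearer beginning 26 bases before the gene. LHCB1.5 held 1 copy beginning 31 bases before its gene, and in TCTP the 1 copy began only 7 bases before the listed start. PSAG held none. Over 100 bases before the RefSeq start, TATAAA on the gene's strand occurred in 19 of the 100 leading nuclear protein-coding loci and in 17.9% of all 27444, while 21.7% of the loci with no read held it. On either strand the shares were 26% of the leading 100 and 25.8% of all. The G-box CACGTG, which reads the same on both strands and cannot share a base with TATAAA, was in 4 of the leading 100 and in 3.61% of all. In these windows neither motif was clearly more frequent in the leading loci than in all. The RefSeq start differed from the listed start in 16 of the 20 leading loci, so a TATA box near the listed start can lie outside the window. The comparison therefore cannot settle whether the leading promoters differ, and a match is a description of the letters only.

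The pool was uneven, with few loci holding much of it. Levels of locus RPKM, computed from the reads of all models of a locus over its longest listed model, summed to 693443. The 10 leading loci held 8.75% of that sum, the 100 leading loci 22.0% and the 1000 leading loci 54.3%. By reads the corresponding shares were 8.68% (8.66 to 8.70%), 21.1% and 51.8%. Together 909 loci held 50% of the reads and 6179 loci held 90%. Only 43 loci reached 1000 RPKM, and they held 13.9% of the reads. A further 1305 loci lay between 100 and 1000 RPKM with 40.2% of the reads, and 7530 loci between 10 and 100 RPKM held 40.8%. At the low end, 5289 loci under 1 RPKM held 0.348% of the reads between them. The median over loci with a read was 6.18 RPKM.

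**Figure D1:**
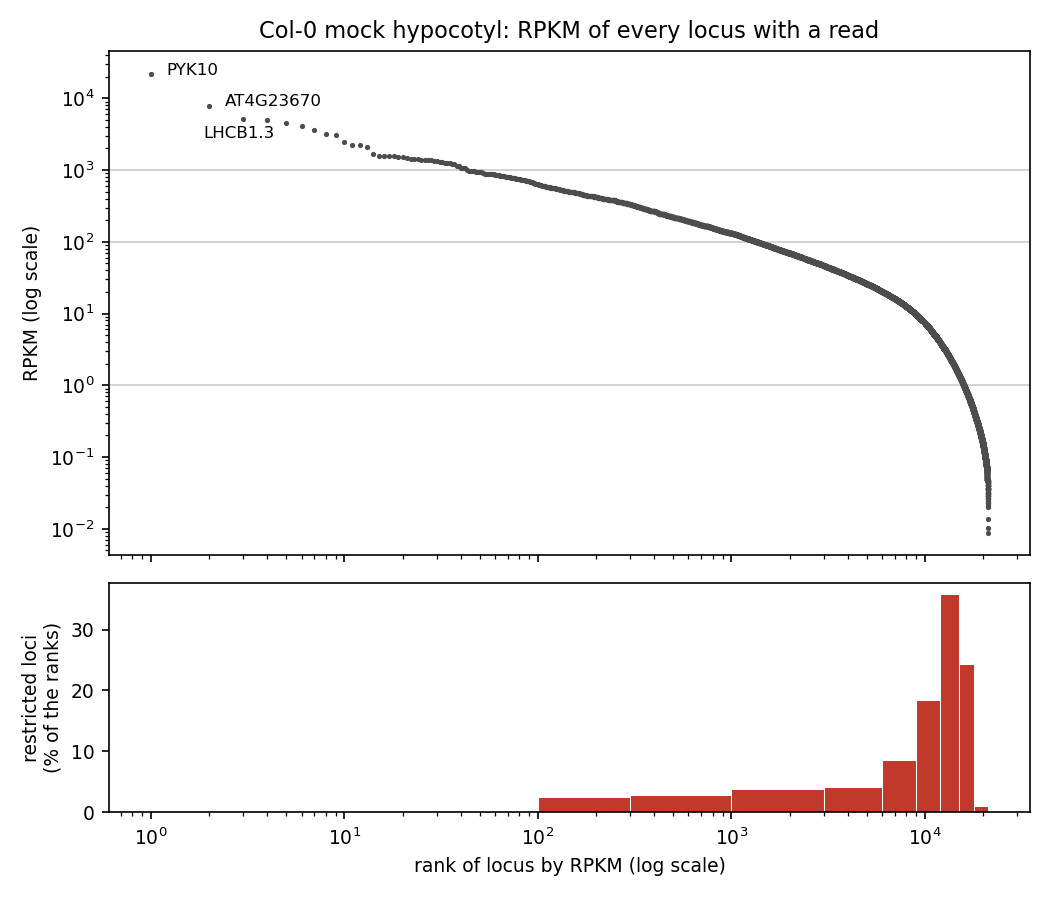
Upper panel, RPKM of every locus with a read in the Col-0 mock library (log scale) against its rank (log scale), with lines at 1, 100 and 1000 RPKM. Lower panel, the percentage of restricted loci in each range of ranks. In these the longest listed model had under 0.5 of the coverage expected from all reads of the locus. PYK10 stands at 21964 RPKM, 43 loci lie at or above 1000 RPKM, and restricted coverage is rare among the leading ranks and reaches 35.8% from rank 12000 to just below rank 15000.

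The covered part of a gene was smaller in genes with more transcripts, and levels fell as well. Among loci with 10 or more reads, the 9276 with 1 RefSeq transcript had a median of 89.6% of their length covered, against 63.8% for 3928 loci with 2 transcripts, 41.7% for 1394 with 3 and 22.6% for 1177 with 4 or more. Over these classes the median level also fell from 19.2 to 3.22 RPKM, and the coverage expected from the read count fell from 99.9 to 69.0%, so the medians carry a part of depth. A locus is called restricted here when the coverage of its longest listed model was under 0.5 of the expected coverage. The expected coverage is what its 49-base reads, summed over all its models, would cover if spread evenly. By that rule 2874 of 16042 loci (17.9%) were restricted, 1.16% of those with 1 transcript and 52.2% of those with 4 or more. The split was sharper by models listed in the library, with 96.7% of loci restricted that list 2 or more models and 9.28% of those that list 1. Part of this split is set by the rule, which counts the reads of all models but the coverage of only the longest. Of the restricted loci 1533 list 2 or more models and 1341 list 1. The split by transcripts shares this limit wherever a locus lists several models. None of the 100 leading loci was restricted, and 91.9% of them had 1 transcript, against 55.0% of all loci with reads and a RefSeq transcript count. The deposited column counts uniquely assigned reads per model, and the treatment of reads shared by isoforms or gene copies is not given in the sources used here. For this reason the level of a restricted locus is given with its covered share, and its RPKM over the covered part (RPKM divided by the covered share) is added where it alters the order of genes described. In a locus that lists 2 or more models this divides the reads of all models by the coverage of the longest. The value can then be too high, and an order that rests on it is not settled.

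**Figure D2:**
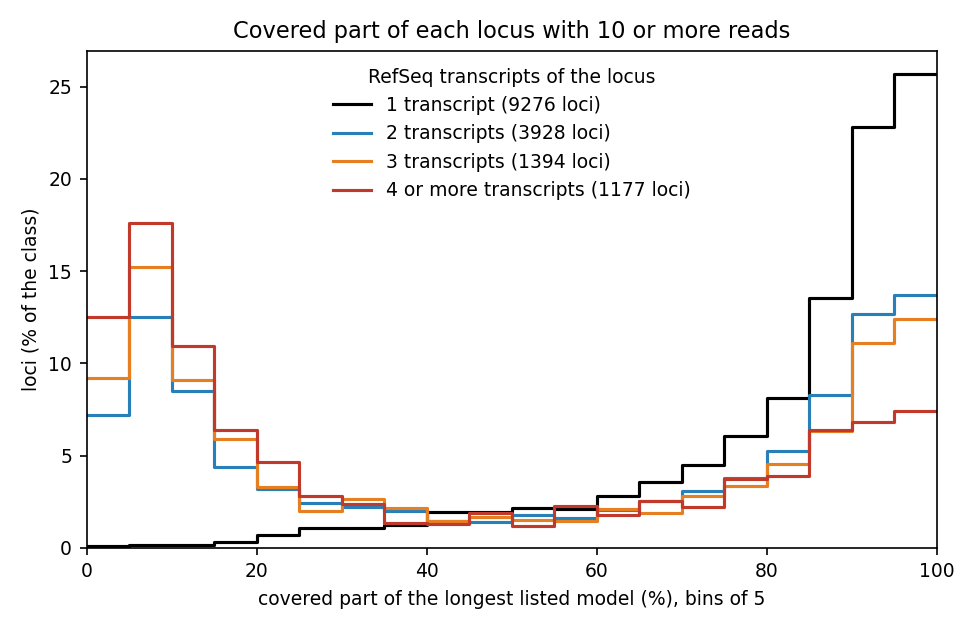
Distribution of the covered percentage of the longest listed model (x axis, bins of 5) over loci with 10 or more reads in the Col-0 mock library, as the percentage of each class of loci (y axis), 1 line per number of RefSeq transcripts. Loci with 1 transcript gather near full coverage (median 89.6%), while the other classes have a second peak below 20% coverage.

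The 20 leading loci spanned several kinds of protein. AT4G23670, a polyketide cyclase and lipid transport superfamily protein on chromosome 4, was second at 7908 RPKM (7841 to 7976). It was followed by LHCB1.3 at 5113 RPKM, a chlorophyll a/b-binding protein of the photosystem II antenna, and by the papain family cysteine protease AT4G11320 at 4899 RPKM. LHCB1.5 had 4514 RPKM, the proline-rich extensin-like AT2G43150 4066 RPKM and the class III peroxidase PRXR1 3622 RPKM. These 7 levels were separated from one another by more than their counting intervals. TCTP, the translationally controlled tumour protein that promotes growth, followed at 3129 RPKM (3088 to 3171), and the lipid-transfer-like AT2G45180 at 3025 RPKM (2977 to 3073). Next came the extensin-like ELP at 2441 RPKM and CTL1, a chitinase-like protein needed for normal cellulose deposition, at 2216 RPKM. The major latex protein homologue MLP43 had 2207 RPKM, with a counting interval that overlapped that of CTL1, and the tonoplast water channel TIP1;2 had 2063 RPKM. The glutathione S-transferase GSTF10 had 1655 RPKM. From the fifteenth to the twentieth place the levels ran from 1566 to 1500 RPKM. These places held the dehydrin COR47, the xyloglucan endotransglucosylase/hydrolase XTH24, the photosystem subunits PSAG and PSBO1, the dehydrin AT1G54410 and the glycine-rich protein DOT1. COR47, XTH24, PSAG, PSBO1 and AT1G54410 had overlapping counting intervals, so their order was not resolved at this depth. The interval of DOT1 also overlapped those of PSAG, PSBO1 and AT1G54410. These ranks use RPKM over the whole model. Over the covered part HSC70-1, with 1 listed model, came to 2738 RPKM, above ELP, and the rRNA AT3G41768, also with 1, to 2134 RPKM. RBCS1A at 4354 and FSD1 at 2925 RPKM were the highest restricted loci. They list 2 and 3 models, so their places were not settled.

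Ranked by reads, long transcripts moved up. PEN3, a full-size ABCG transporter of the plasma membrane that takes part in defence at the cell surface, was the fourth by reads with 50263 and ranked 23 by RPKM with 1426. The lipid-binding patellin PATL1 had 19175 reads, the beta-galactosidase BGAL1 19147 and the beta-xylosidase BXL1 17855. The 20 leading loci by reads also held the glutathione S-transferase GSTF8 with 16352 reads, the dehydration-induced ERD4 with 16125, the lectin AT1G78850 with 15477 and the cysteine protease RD19 with 15311. A transcribed pseudogene of 4780 bases, AT1G79245, was the fifteenth by reads with 16443, yet only the 166th by RPKM with 464.

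Several leading levels were not alike in the other 3 libraries, each of them again a single library. Beside its 21964 RPKM here, PYK10 had 18382 RPKM in arf7 mock and 13854 with NAA in arf7, and the lowest level was the 4050 RPKM of Col-0 NAA. TIP1;2, at 2063 RPKM here, was instead highest in Col-0 NAA at 13590 RPKM, and it had 1306 RPKM in arf7 mock and 3899 RPKM in arf7 NAA. PRXR1 stayed between 2817 and 3622 RPKM in all 4 libraries. Of the 100 leading loci of Col-0 mock, 79 were among the 100 leading loci of arf7 mock, 77 among those of arf7 NAA and 46 among those of Col-0 NAA. Depths ran from 6996903 to 7406802 reads per library.

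**Figure D3:**
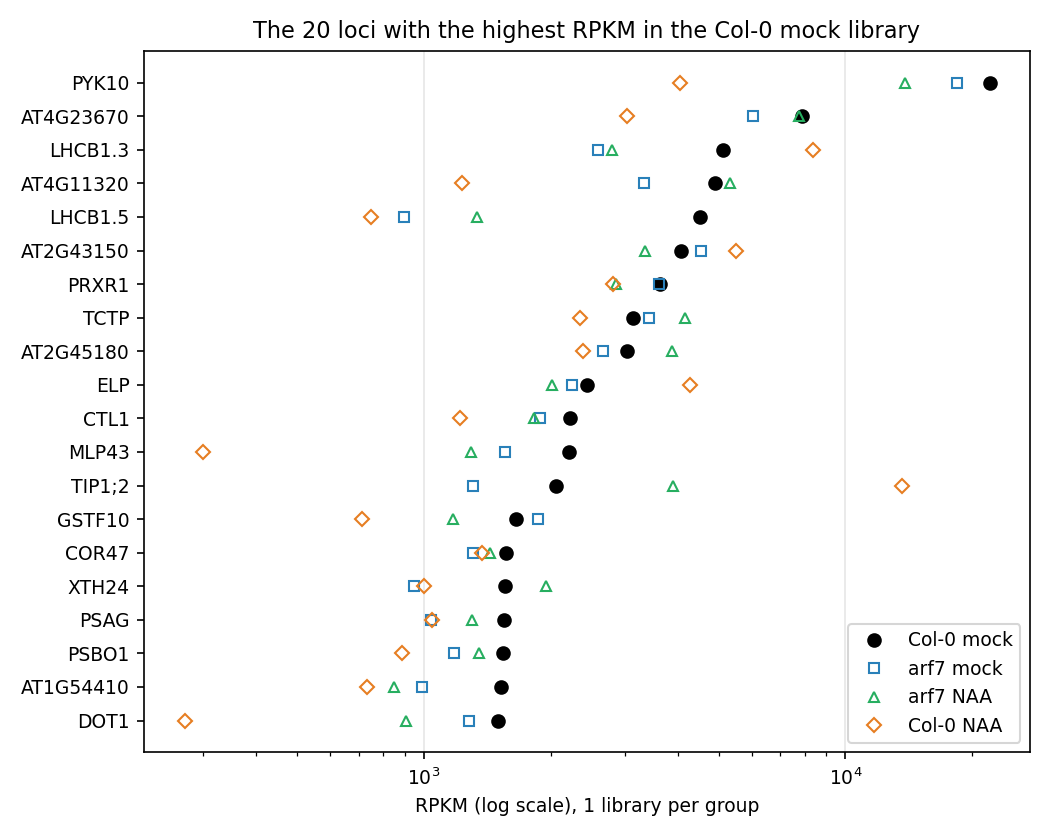
RPKM (log scale) of the 20 leading loci of the Col-0 mock library, with the same loci in the other 3 libraries, 1 library per group and no error bars since there are no replicates. PYK10 leads at 21964 RPKM in Col-0 mock and is lowest in Col-0 NAA at 4050 RPKM, whereas TIP1;2 is highest in Col-0 NAA at 13590 RPKM.

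The beta-glucosidases were dominated by 1 member. Of 47 beta-glucosidases, 18 reached 1 RPKM (38.3%), against 56.1% of all nuclear protein-coding loci, and PYK10 alone held 97.1% of the family's summed RPKM and 3.17% of the whole pool. Other members were far below it, with the myrosinase BGLU26 (PEN2), which acts with PEN3 in defence, at 310.5 RPKM and the close PYK10 relative BGLU22 at 37.5 RPKM. NAI1, the bHLH factor required for ER bodies, had 63.8 RPKM with 96.0% of its length covered. Of the 12 listed partners of PYK10 in the ER body and its protein complex, 10 reached 1 RPKM (83.3%). They were led by the GDSL lipase-like AT1G54010 at 334 RPKM and GLL25 at 172 RPKM. Among these partners 6 were restricted. NAI2, the ER body component, had 70.6 RPKM from only 7.57% of its length, and the jacalin-type lectin JAL34 had 43.7 RPKM from 2.02%. Over the covered part NAI2, with 1 listed model, came to 932 RPKM, above AT1G54010. JAL34 came to 2162 RPKM, but it lists 2 models, so that value can be too high and its place was not settled.

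All 10 enzymes listed for indole glucosinolates, the substrates of PYK10, reached 1 RPKM and 8 exceeded 100 RPKM. The methyltransferase IGMT1 led at 844 RPKM. CYP79B2 and CYP79B3, which convert tryptophan to indole-3-acetaldoxime, had 260.0 and 353 RPKM, CYP83B1, the next enzyme, 511 RPKM and the sulfotransferase SOT16 447 RPKM. The aliphatic pathway was lower: 8 of 11 enzymes reached 1 RPKM, none reached 100 RPKM, and its leader SOT18 had 41.6 RPKM. Those 8 are 72.7% of the list, against 56.1% of all nuclear protein-coding loci. Among the MYB factors MYB51, a regulator of the indole branch, led at 363 RPKM, and MYB34 of the same branch had 86.4 RPKM. The small antimicrobial defensins were carried by 2 genes, PDF2.2 at 1288 RPKM and PDF2.3 at 888 RPKM, which held 58.6% and 40.4% of the family. PDF1.2, PDF1.2b and PDF1.2c, known as jasmonate-induced defensins, each had 0 reads.

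Nuclear genes for photosynthesis were abundant although the seedlings were dark-grown. The labels do not say under which light the seedlings were handled or harvested. All 30 listed photosystem subunits reached 1 RPKM and 21 exceeded 100 RPKM, and 20 of 21 light-harvesting proteins reached 1 RPKM, 95.2% against the 56.1% background. These families held 2.28% and 2.44% of the pool. The photosystem subunits were evenly shared, with PSAG of photosystem I at 1552 RPKM and PSBO1 of the oxygen-evolving complex at 1543 RPKM each holding under 10% of the family's sum. PSBR followed at 1469 RPKM, the plastocyanin PETE2 at 1382 RPKM and PSAF at 1235 RPKM. In the antenna LHCB1.3 and LHCB1.5 led, followed by LHCA4 of photosystem I at 1419 RPKM, LHCA2 at 981 RPKM and LHCB5 at 934 RPKM. LHCA1, with 4 RefSeq transcripts, had 0 reads.

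The 5 copies of LHCB1 are nearly identical, so the split of reads among them is uncertain, whereas their sum is less so. Together they held 85503 reads and 11044 RPKM, 1.59% of the pool, from 309 RPKM for LHCB1.1 to 5113 RPKM for LHCB1.3. The 3 copies of LHCB2 summed to 448 RPKM. Some of these copies differed widely between the single libraries. LHCB1.1 had 309 RPKM in Col-0 mock, against 38.6 RPKM with NAA, and arf7 had 6.08 without and 2.36 with NAA. LHCB1.5 had 4514, 751, 897 and 1335 RPKM in that order. LHCB1.3 had 5113, 8357, 2584 and 2794 RPKM, so that Col-0 NAA was the highest for that copy. The part that the assignment of reads among copies had in these levels was not tested.

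The small subunit of Rubisco was counted poorly. RBCS1A had 438 RPKM from 10.05% of its length and RBCS3B 110.0 RPKM from 4.90%, and over the covered part these came to 4354 and 2245 RPKM. Both list 2 models, so the values over the covered part can be too high. RBCS2B, with 1 transcript and 88.0% covered, had 221 RPKM. Protochlorophyllide oxidoreductase, the light-dependent enzyme of chlorophyll synthesis that etioplasts are known to store, was barely measured. PORB had 26.0 RPKM from 13.1% of its length, and PORA, with 2 RefSeq transcripts, had 0 reads here and in both arf7 libraries and 32.3 RPKM in Col-0 NAA. The early light-induced proteins ELIP1 and ELIP2 had 8 and 4 reads.

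Structural wall proteins were led by few members. Among 57 extensin and proline-rich proteins, the structural glycoproteins of the wall, AT2G43150 held 46.4% of the family, ELP 27.8% and EXT3 9.85% at 864 RPKM. PRXR1 held 50% of the class III peroxidases, which cross-link wall polymers, and 38 of 70 members reached 1 RPKM (54.3%), close to the background. AT3G32980 was the next peroxidase at 1228 RPKM. Arabinogalactan and fasciclin-like proteins were spread more widely, with 35 of 50 at 1 RPKM (70%) and AGP15 in front at 858 RPKM with 15.8% of the sum. DOT1 led the glycine-rich proteins with 38.3%.

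Wall-loosening and wall-building enzymes were present with clear leaders. XTH24 at 1560 RPKM and XTH4 at 1234 RPKM held 30.9% and 24.5% of the XTH enzymes, which cut and rejoin xyloglucan, and XTH22 (TCH4), known to respond to touch, had 587 RPKM. Of 33 XTH genes 22 reached 1 RPKM (66.7%, against 56.1% of all nuclear protein-coding loci), while XTH1, XTH2, XTH11, XTH12 and XTH13 had 0 reads. EXPA4 at 553 RPKM held 50.4% of the expansins, and EXLA1 had 210 RPKM. Of 36 expansins 18 reached 1 RPKM (50%), against 56.1% of all nuclear protein-coding loci. EXPB3 had 45.9 RPKM from 8.36% of its length and 549 RPKM over the covered part, which would lower the share of EXPA4 to 33.4%. With only loci of 1 listed model EXPA4 held 53.2%. EXPB3 has 4 RefSeq transcripts, and if it lists several models its value over the covered part can be too high. The 3 primary-wall cellulose synthases CESA3, CESA1 and CESA6 had 444, 393 and 228 RPKM, which was 33.9%, 30% and 17.4% of the family. CESA4, CESA7 and CESA8 of the secondary wall had 29.9, 24.9 and 20.3 RPKM, and CESA10 had 0 reads. The pectin families were mostly below 1 RPKM: 31 of 103 pectin lyase-like proteins (30.1%) and 30 of 109 invertase and pectin methylesterase inhibitors (27.5%) reached 1 RPKM. AT1G04680 led the pectin lyase-like proteins at 108 RPKM, and AT4G24780, at 11.2 RPKM from 7.96% of its length, came to 141 RPKM over the covered part. AT5G62350 led the inhibitors at 886 RPKM with 43.3% of their sum.

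Among surface and membrane proteins, AT4G23670 held 61.6% of the polyketide cyclase and MLP family, and AT2G45180 held 60.5% of 128 lipid-transfer and 2S albumin-like proteins, of which 37.5% reached 1 RPKM. Wax and cutin enzymes were spread evenly, led by the elongases KCS20 at 151 RPKM and KCS10 at 127 RPKM. CER1, the alkane-forming enzyme, has 5 RefSeq transcripts and had 0 reads. TIP1;2 held 48.9% of the aquaporins, followed by PIP2;6 of the plasma membrane at 531 RPKM and TIP2;1 at 473 RPKM. AHA1, the proton pump that acidifies the wall, held 85.8% of the plasma membrane H+-ATPases at 299 RPKM. PEN3 held 91.7% of the 15 full-size ABCG transporters. In the papain family AT4G11320 held 70%, RD19 19.3%, and the senescence protease SAG12 had 0 reads. The neighbouring paralogue AT4G11310 had only 0.404 RPKM.

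**Figure D4:**
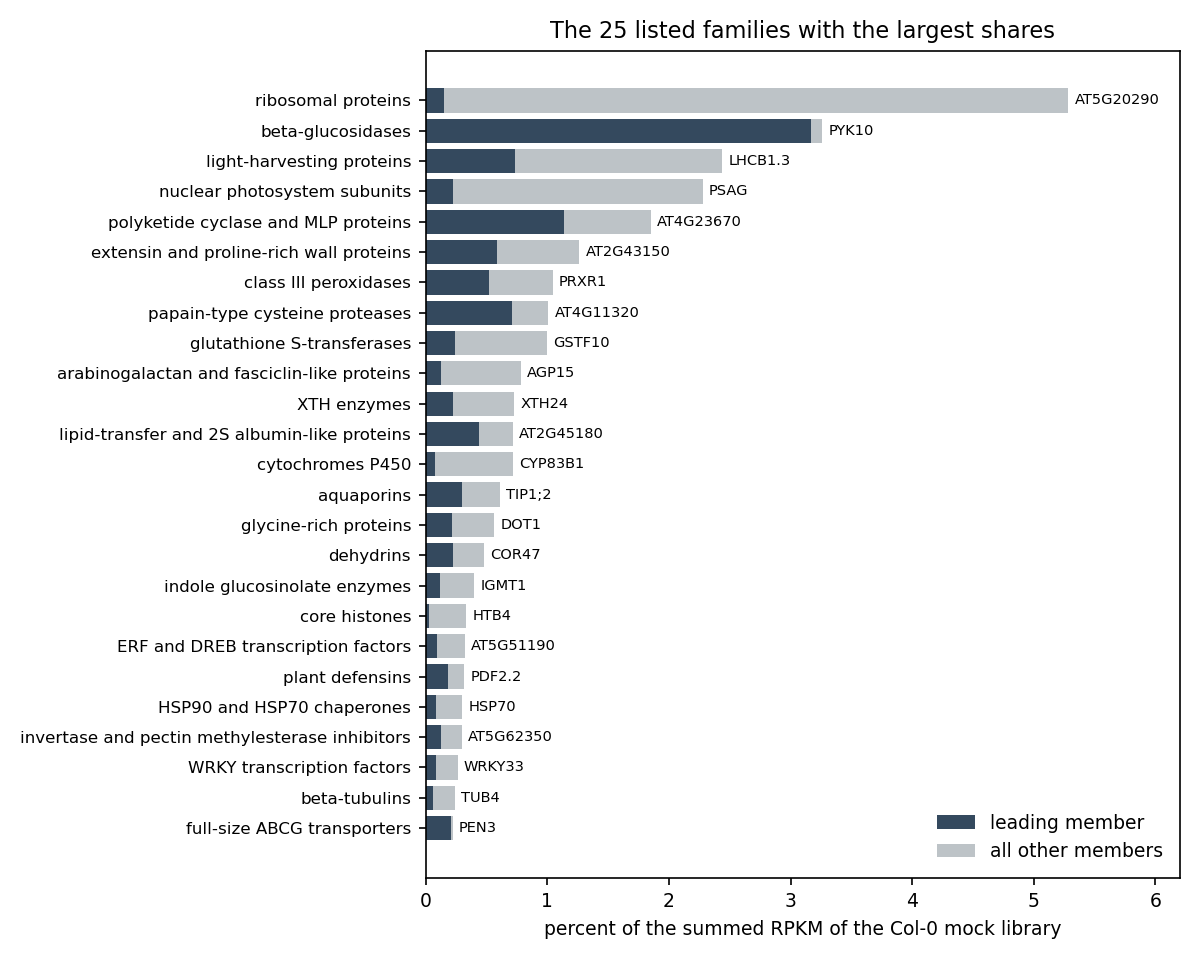
Summed RPKM of the 25 listed families with the largest shares in the Col-0 mock library, as a percentage of the whole pool, with the leading member dark and named and all other members light. Ribosomal proteins (5.28% of the pool) have no dominant member, whereas PYK10 makes up 97.1% of the beta-glucosidases (3.26% of the pool).

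By summed RPKM the ribosomal proteins were the largest listed family, and by reads they came after the beta-glucosidases, with 226270 against 303028 reads. They held 5.28% of the pool, and 290 of 333 reached 1 RPKM (87.1%). Their leader AT5G20290 at 1062 RPKM held 2.90% of the sum, and 97 members were needed to reach 80% of it. Of these genes 78 were restricted. The elongation factor EF2 had 603 RPKM and 97.0% of its length covered. Of the EF1A copies 3 were restricted, and AT5G60390 had 0 reads. Among cytoskeletal genes all 6 alpha-tubulins and all 9 beta-tubulins reached 1 RPKM, led by TUA4 at 406 and TUB4 at 447 RPKM. ACT8 at 742 RPKM and ACT7 at 309 RPKM led the actins, and ACT9 and the pollen actins ACT4 and ACT12 had 0 reads. ACT2, an abundant vegetative actin with 3 transcripts, had 38.9 RPKM from 2.70% of its length. Over the covered part ACT2 came to 1442 RPKM, which would lower the share of ACT8 from 65.4 to 29%. As ACT2 lists 2 models, that value can be too high, and its place against ACT8 was not settled.

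Detoxification and stress proteins took a visible share. Of 49 glutathione S-transferases 34 reached 1 RPKM (69.4%), led by GSTF10 at 1655, GSTF8 at 1273 and GSTU19 at 925 RPKM. GSTF9 had 395 RPKM from 27.3% of its length and 1446 RPKM over the covered part. As it lists 2 models, that value can be too high, and its place against GSTF8 was not settled. The 234 cytochromes P450 were spread over many members, with CYP83B1 holding 10.3%. Of them 115 reached 1 RPKM (49.1%), against 56.1% of all nuclear protein-coding loci. CYP81F4, which modifies indole glucosinolates, had 136 RPKM from 16.7% of its length and 813 RPKM over the covered part, above CYP83B1 at 511 RPKM. CYP73A5, the cinnamate hydroxylase of the phenylpropanoid pathway, had 399 RPKM. HSP70 had 597 RPKM, and HSP90.1 had 165 RPKM. The level of HSP70 was higher in arf7 mock at 1027 RPKM and lower in arf7 NAA at 546 RPKM, and in Col-0 NAA it was 38.7 RPKM. HSC70-1 had 554 RPKM from 20.2% of its length and 2738 RPKM over the covered part, which would place it above HSP70 and lower the HSP70 share of these chaperones from 28.5 to 12.6%. COR47 and AT1G54410 held 47.2% and 46.0% of the dehydrins, while RAB18, induced by abscisic acid, had 0 reads.

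Transcription factor families had members at high levels too. WRKY33, a regulator of camalexin synthesis, had 588 RPKM and WRKY40 had 403 RPKM, 32.0% and 21.9% of the summed RPKM of the 72 WRKY factors. Of these factors 42 reached 1 RPKM (58.3%), close to the 56.1% of all nuclear protein-coding loci. The ERF factor AT5G51190 had 639 RPKM, with 173 RPKM in arf7 mock, 186 RPKM in Col-0 NAA and 788 RPKM in arf7 NAA. ERF104 had 328 RPKM. NAC102 and ATAF2 had 259 and 249 RPKM. The bHLH factors were spread, with ILR3 at 128 RPKM in front. MADS-box factors, many of which act in flowers and seeds, stood at the other end: 15 of 120 reached 1 RPKM (12.5%), and AG, which specifies stamens and carpels, had 0 reads. AGL15 led at 25.1 RPKM, and the flowering repressor FLC had 4.95 RPKM from 9.49% of its length and 52.2 RPKM over the covered part, above AGL15.

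Hormone pathways were measured at modest levels. Among auxin genes IAA16 led the Aux/IAA repressors at 377 RPKM, followed by IAA2 at 272 RPKM, and 21 of 29 reached 1 RPKM (72.4%). Of the 6 TIR1/AFB receptors 5 reached 1 RPKM, from AFB1 at 13.7 to TIR1 at 62.1 RPKM, and AFB4 had 0.404 RPKM from 4.78% of its length. PIN3, which moves auxin sideways in hypocotyls, had 174 RPKM, AUX1 146 RPKM and LAX3 104 RPKM, and PIN4 and PIN7 were restricted. The auxin-conjugating enzymes GH3.5 and GH3.6 had 124 and 115 RPKM. Among auxin synthesis enzymes YUC5 had 7.41 and TAA1 3.09 RPKM. YUC6 had 3.26 RPKM from 7.53% of its length and 43.3 RPKM over the covered part. That would place it first and lower the share of YUC5 from 40 to 12.7%. As YUC6 lists several models, that value can be too high, and its place against YUC5 was not settled. Among ARF factors ARF3 led at 43.5 RPKM and ARF19 had 22.9 RPKM. ARF2 had 3.19 RPKM from 5.41% of its length and 58.9 RPKM over the covered part, which would place it above ARF3 and lower the share of ARF3 from 28.4 to 15.7%. ARF7, the gene mutated in the other genotype, had 8 reads over 1.96% of its length and its level could not be read. SAUR proteins were led by AT1G72430 at 106 RPKM, with 42 of 78 at 1 RPKM (53.8%), close to the 56.1% of all nuclear protein-coding loci.

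For ethylene ACS6, an ACC synthase, had 189 RPKM, and ERS1 led the receptors at 88.2 RPKM. GA2OX6, which inactivates gibberellin, held 83.2% of the gibberellin oxidases at 124 RPKM, and the DELLA repressor RGA had 72.1 RPKM. All 8 DELLA and GID1 genes reached 1 RPKM. In brassinosteroid signalling BRI1, the receptor, had 97.9 RPKM, and the kinase BIN2 had 132 RPKM from 45.8% of its length. CYP85A1 and CYP90A1, each with several transcripts, had 0 reads.

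Light-signalling genes were covered unequally. CRY1 had 56.4, PHYB 19.9 and PHYC 15.05 RPKM, but PHYA, the phytochrome most abundant in darkness, had 1.66 RPKM from 4.39% of its length. PHOT1 had 0.161 RPKM from 1.91%. Of 7 PIF factors only PIF8 reached 1 RPKM, at 5.62, and the other 6 were covered over 2.53 to 8.31% of their length. All 7 have 3 or more RefSeq transcripts. COP1 had 22.8 RPKM and 95.2% coverage, DET1 32.5 RPKM and HY5 19.9 RPKM. TOC1 led the clock genes at 124 RPKM, with 97.3% covered, while LHY, with 8 transcripts, had 0 reads and CCA1 0.476 RPKM.

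Of the 27444 nuclear protein-coding loci 20243 (73.8%) had a read, 15399 (56.1%) reached 1 RPKM and 7201 had none. A count of 0 allows a share of up to 4.05e-05% of the reads, which is 3 reads of 7406802. Of the 7201 loci, 5626 have 1 RefSeq transcript. Restriction could be judged only with 10 or more reads, so the loci with none carry no such check. Of the listed families of 20 or more loci, 3 had no member at 1 RPKM. None of 65 self-incompatibility S1 proteins had a read, 1 of 74 ECA1 gametogenesis proteins had reads (3 in all) and 2 of 87 defensin-like DEFL proteins had 1 read each. Seed storage proteins and oleosins were nearly absent, with 2 of 12 at 1 RPKM and the cruciferins CRA1, CRU2 and CRU3 at 0 reads.

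**Figure D5:**
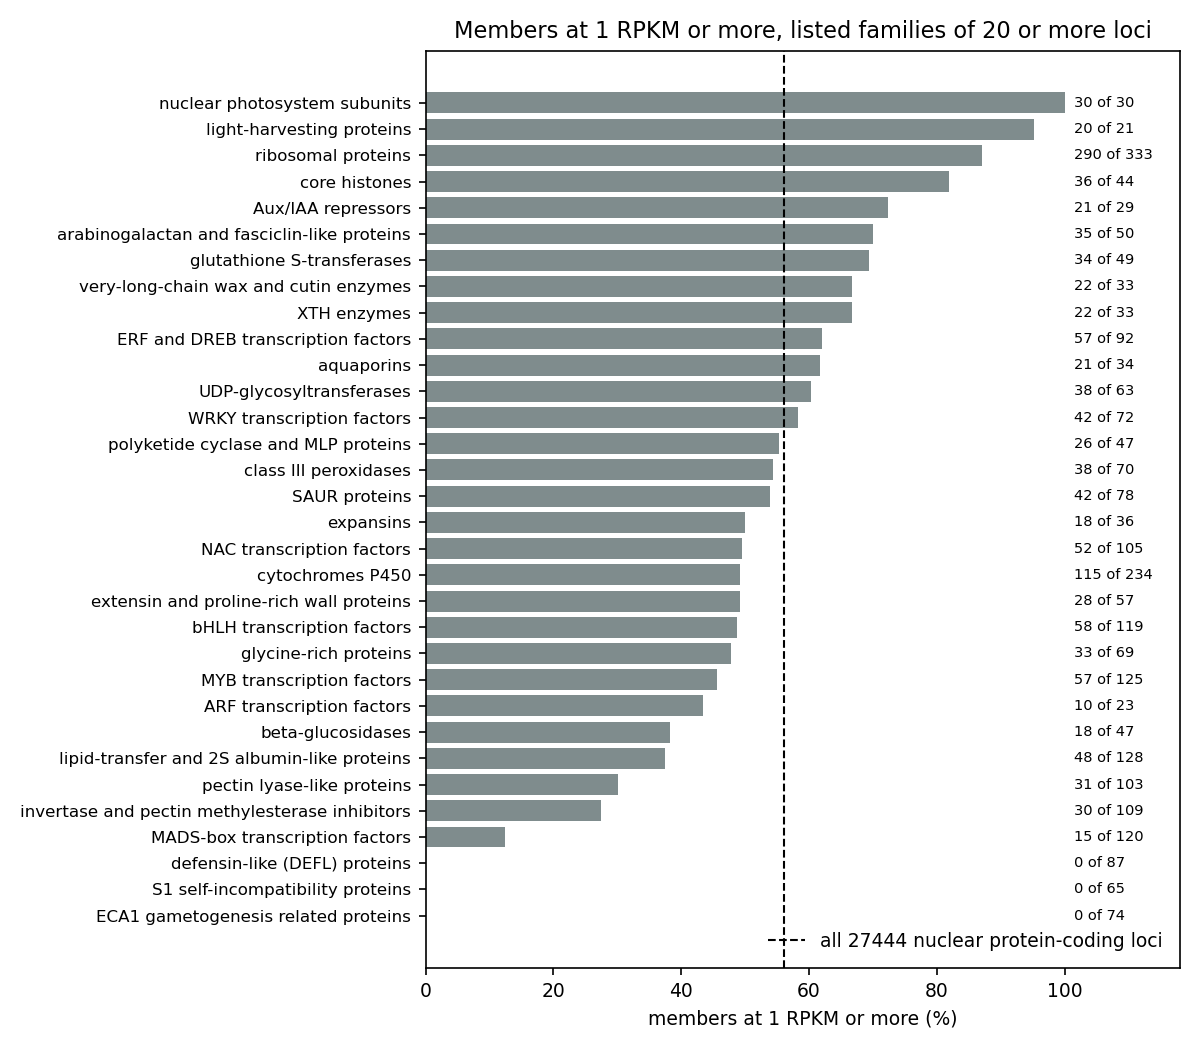
Percentage of the members of each listed family of 20 or more loci that reached 1 RPKM in the Col-0 mock library, with the counts beside the bars and a dashed line at the 56.1% of all 27444 nuclear protein-coding loci. All 30 photosystem subunits lie at 100%, the MADS-box factors at 12.5%, and the DEFL, S1 and ECA1 families at 0.

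Most markers of the epidermis, endodermis, xylem, phloem and cambium were present, and those of root hairs, the root tip and guard cells summed to under 4 RPKM each. Epidermal, endodermal, xylem and cambium markers all reached 1 RPKM, 5 of 5, 4 of 4, 6 of 6 and 2 of 2. KCS10 had 127 RPKM and PDF1 80.1 RPKM in the epidermis, SCR 32.6 and CASP1 16.6 RPKM in the endodermis, XCP2 136 RPKM in the xylem and PXY 41.5 RPKM in the cambium. Of 3 phloem markers 2 reached 1 RPKM, SEOR1 at 136 and SUC2 at 70.2 RPKM, and APL had 0.562 RPKM. Root hair markers summed to 1.84 RPKM with 1 of 7 at 1 RPKM, while the sum was 1.19 RPKM in arf7 mock, 33.4 RPKM in arf7 NAA and 97.0 RPKM in Col-0 NAA. Root tip markers summed to 3.90 RPKM with 1 of 3 at 1 RPKM, WOX5 at 2.70 RPKM. The 5 shoot apex markers summed to 106 RPKM, nearly all of it KNAT1. Of these WUS and CLV3 had 0 reads and STM had 3.27 RPKM, and KNAT1, which is also expressed in stems, had 102.8 RPKM. The 4 guard cell markers summed to 3.51 RPKM, and 2 of them reached 1 RPKM. These were FAMA at 1.72 and KAT1 at 1.18 RPKM, while the stomatal factor MUTE had 0 reads. Green tissue markers had the largest sum of all lists, 789 RPKM, with 3 of 3 at 1 RPKM. They were RBCS1A, LHCB1.1 and CA1, the last at 43.0 RPKM from 19.1% of its length. Seed storage markers summed to 1.95 RPKM, with 1 of 5 at 1 RPKM.

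Organelle genomes supplied 0.355% of the reads (0.350 to 0.359%) and 0.796% of the RPKM pool, with 0.274% of the reads from the plastid and 0.0808% from the mitochondrion. The plastid ribosomal protein genes RPL16 and RPL14 led at 808 and 581 RPKM. Protein-coding loci held 98.9% of all reads. Transcribed pseudogenes held 0.319%, other pseudogenes 0.196% and noncoding RNAs of the ncRNA class 0.148%, led by AT1G10682 at 706 RPKM. How the RNA was selected before reverse transcription with random primers is not given in the labels, and the organelle shares depend on it.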

How the data were processed

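Hypocotyl RNA of 4 libraries was read by random-primed sequencing, per the labels' protocols. The authors deposited 1 table per library. Its columns hold the read count of each transcript model (unique reads), the percentage of each model covered (Coverage, in percent) and RPKM, per the file headers. The submitters' processing notes name TAIR10; which aligner and counter were run is not given in the sources used here. Recomputed RPKM, from the count, model length and column total, differed from the deposited RPKM by less than 1e-09 of its value. The read length of 49 bases was taken from the covered length of 2391 models with 1 read.

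Reads were summed per locus, and locus RPKM used the longest listed model. The 16 per-sample columns in the deposited tables of the authors' own comparisons were not used. Symbols, transcript numbers and promoters came from RefSeq TAIR10.1: 21018 of 21186 loci matched, and 21012 of these overlapped the gene of the same name. The 20 leading loci by each measure, the leading members of each of 65 families to 80% of its RPKM (at most 5) and up to 5 members without a read or under 1 RPKM were named. In families of 8 or fewer members every member could be named. NAI1, BGLU22, BGLU26, MYB34, ELIP1, ELIP2, PHYA, ARF7, CYP81F4, ARF2, FLC, AT4G24780, restricted loci and a few other members outside that rule were chosen after their values were seen. Families and lists were chosen with earlier results of these data known. Python 3.11.15, pandas 2.3.3, numpy 2.4.6 and scipy 1.17.1 were used, and the restriction rule was tested on simulated data with 1 model per locus. No p-value was computed, since each group has 1 library.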

Additional observations from a re-analysis of the deposited data

How the results depend on the processing

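No paired analysis was possible because each group has 1 library. The number of loci at 1 RPKM or more ranged from 13465 to 16339 over the alternatives (15897 as reported), and 841 to 909 loci held 50% of the reads. The 100 leading loci held 21.1% of the reads as reported, 21.42% with only loci of 1 listed model, 21.14% with nuclear loci only and 21.12% with only loci of 10 or more reads. Of the RPKM pool they held 22.0% as reported, 22.4% with 1 listed model, 21.92% with the shortest model length, 22.14% with nuclear loci and 22.07% with 10 or more reads. The organelle share of reads, 0.355% as reported, was 0.361% with 1 listed model and has no value for nuclear loci alone. The listed families held 29.6% of the pool as reported, 29.84% with nuclear loci and 29.68% with 10 or more reads. The median share of a family's leading member was 38.4% as reported, 39.02% with 1 listed model, 38.28% with the shortest length and 36.9% with 10 or more reads.

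Both alternatives on restricted loci were chosen after seeing the data. Without those loci, the 100 leading loci held 21.77% of the reads and 22.83% of the pool, organelles 0.3504% of the reads, the families 29.5% of the pool and the median leader 40.2% of its family. With RPKM over the covered part, the 100 leading loci held 19.9% of the pool, the families 28.98% and the median leader 33.3%. The leading member stayed the same in 55 of 64 families with that scaling, in 56 when members were ranked by reads and in 62 with only loci of 1 listed model. JAL34, HSC70-1, CYP81F4 and ACT2 were among the 9 members that took the lead over the covered part. Of these JAL34 and ACT2 list 2 models each, and YUC6, which also took the lead, lists several, so their lead was not settled. The same holds for any other of the 9 that lists several models. Depth limits single loci little above 100 RPKM, whereas under 1 RPKM most loci rest on few reads, and the absence of a gene with several transcripts cannot be read from a count of 0.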

Other observations

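Proteins with no assigned function were also among the abundant transcripts. AT1G09310, a protein with a DUF538 domain, had 1362 RPKM and ranked 27, and AT4G36500 had 827 RPKM and ranked 65. AT1G28400 had 551 RPKM. In the other libraries AT4G36500 had 107 RPKM in Col-0 NAA, 684 RPKM in arf7 mock and 572 RPKM in arf7 NAA, each from 1 library.

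Some large families of housekeeping proteins were detected widely and held small shares of the pool. Of 200 loci described as pentatricopeptide repeat superfamily proteins, which process organelle RNA, 166 reached 1 RPKM (83%), yet together they held 0.125% of the pool. Of 36 mitochondrial substrate carriers 32 reached 1 RPKM (88.9%, against 56.1% of all nuclear protein-coding loci), and together they held 0.0990% of the pool. At the other extreme, 18 of 153 F-box and associated interaction domain proteins (11.8%) reached 1 RPKM, and none of 44 plant thionins had a read.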
